A study of Mus musculus with 6 samples.

Results

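The 8 genes described here encode LIM kinases (Limk1, Limk2), cofilins (Cfl1, Cfl2), slingshot phosphatases (Ssh1, Ssh2) and p21-activated kinases (Pak1, Pak4), which together set the turnover of actin filaments. They were chosen by name, as 8 of 54532 genes in the deposited table, and each had a single row. Limk1 was picked because of its large difference between the groups, so its values are a description without a test; the other 7 were chosen for their function. All 8 passed the filter on low counts. RNA of AML12 cells, a line of mouse hepatocytes kept in culture, was sequenced in 6 libraries after 24 h of treatment. The 3 libraries of the PP group came from cells given PP at 250 µg/ml, and the 3 of the PA/OA group from cells given PA/OA, the modelling reagent, with 400 nM PA and 800 nM OA as the submitters write it. Both groups are labelled wild type and come from the same line, and the sources used here leave it unsaid whether PP cells also received PA/OA. PP is named only by its abbreviation in the labels, and the series title speaks of Camellia oleifera meal peptides. Untreated cells were not analysed here. Separate cultures are nowhere stated, and p-values therefore measure a spread between libraries that may be technical.

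Cofilin binds actin filaments, severs them and frees monomers. LIM kinases phosphorylate cofilin near its amino terminus, which keeps it off actin, and slingshot phosphatases remove that phosphate. PAK kinases, which act below Rac and Cdc42, phosphorylate and activate LIM kinases. In the liver this pathway shapes hepatocyte contacts and bile canaliculi. Phosphorylation was not measured here, only mRNA.

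Total counts ran from 27418502 to 32560589 in PP libraries and from 24113169 to 26825673 in PA/OA libraries. A gene was called where its p in edgeR's quasi-likelihood fit, adjusted over all 15718 genes tested, was under 0.05. This held for 75.0% of them, 35.1% higher and 39.9% lower in PP, so a call is the usual outcome for a gene in this comparison. Called differences of at least 2-fold made up 12.1% (higher) and 24.5% (lower). Groups did not overlap for 77.4% of genes, with PP above PA/OA for 36.1% and below it for 41.4%. Levels are given as CPM, counts scaled with TMM to a common library total, and the log2 fold change of all genes tested had a median of -0.09. Of 9 hepatocyte markers in the table, 5 averaged at least 1 CPM, and their summed level was 109 to 128 CPM in PP and 323 to 344 CPM in PA/OA libraries. Most of it came from Apob (75.76 CPM in PP, 245.5 CPM in PA/OA) and Hnf4a (26.85 CPM in PP, 71.69 CPM in PA/OA). Apoa1 (2.735 CPM in PP, 2.039 CPM in PA/OA) and Serpina1a (0.2499 and 0.155 CPM) were higher in PP instead. Alb averaged 9.90 CPM in PP and 12.2 CPM in PA/OA, Fgb had 1 count in all and Ahsg none. The 5 bile duct markers summed to 4053 to 4496 CPM in PP and 2429 to 2554 CPM in PA/OA, mostly from Krt19, with Epcam at 0. Summed levels of 6 stellate or mesenchymal markers (1.85 to 4.15 CPM in PP, 4.13 to 5.39 CPM in PA/OA) and of 4 endothelial markers (at most 0.507 CPM) were low. The 5 macrophage markers summed to 26.55 to 29.5 CPM in PP and 3.13 to 3.79 CPM in PA/OA, nearly all from Cd68, with Adgre1 and Clec4f at 0. The part of these shifts in the results below was not tested.

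Among the 8 genes, Limk1 was 6.83-fold higher in PP, Pak4 rose 2.38-fold and Ssh2 was 2.44-fold lower. Their promoters are shown because these 3 genes had differences of at least 2-fold. Each is the upstream-most start site in RefSeq (build GRCm38.p6), from 250 bases before the start to 50 after it, written 5′ to 3′ on the gene's own strand. Capitals mark GC boxes, the letters GGGCGG or their reverse complement CCGCCC.
Limk1 (chr5:134688541-134688840, minus strand): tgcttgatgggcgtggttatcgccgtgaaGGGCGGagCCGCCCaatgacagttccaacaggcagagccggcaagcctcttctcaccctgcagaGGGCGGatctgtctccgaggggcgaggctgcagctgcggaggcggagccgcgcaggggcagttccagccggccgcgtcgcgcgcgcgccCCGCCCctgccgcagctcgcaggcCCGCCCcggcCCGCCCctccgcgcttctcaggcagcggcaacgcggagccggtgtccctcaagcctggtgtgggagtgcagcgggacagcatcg
Pak4 (chr7:28598135-28598434, minus strand): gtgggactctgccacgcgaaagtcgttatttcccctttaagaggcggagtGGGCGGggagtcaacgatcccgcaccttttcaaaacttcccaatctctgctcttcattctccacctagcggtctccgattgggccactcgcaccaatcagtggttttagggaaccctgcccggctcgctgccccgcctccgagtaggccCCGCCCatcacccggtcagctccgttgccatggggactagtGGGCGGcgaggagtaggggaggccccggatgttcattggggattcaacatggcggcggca
Ssh2 (chr11:77216175-77216474, plus strand): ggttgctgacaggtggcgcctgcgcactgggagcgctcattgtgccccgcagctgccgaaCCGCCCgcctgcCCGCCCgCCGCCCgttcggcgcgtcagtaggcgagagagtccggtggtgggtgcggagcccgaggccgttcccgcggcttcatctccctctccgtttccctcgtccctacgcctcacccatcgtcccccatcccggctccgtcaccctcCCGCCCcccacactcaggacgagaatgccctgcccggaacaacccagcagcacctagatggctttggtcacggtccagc
The Limk1 window shown held 6 GC boxes, the Pak4 window 3 and the Ssh2 window 4. Another Limk1 window in RefSeq, at a start further downstream, held 0, and another Ssh2 window held 4. Which start the cells used was not measured. A GC box on either strand stood in 35.7% of 32851 promoter windows of the same length, and in 11 of the 13 windows that the RefSeq table gives for the 8 members. The cAMP response element TGACGTCA stood at 2 places in a Pak1 window and the E-box CACGTG once in a Pak1 and once in a Cfl2 window (1.79% and 7.15% of all windows hold them). Neither the AP-1 letters TGACTCA nor the TATA letters TATAAA, on either strand, occurred in these 13 windows (5.2% and 13.6% of all windows hold them). These matches describe letters, and neither sites in use nor the differences in mRNA follow from them.

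Both LIM kinase genes were higher in PP. Limk1 (chromosome 5, 134656039 to 134688598, build mm10) had 9805, 11466 and 10826 counts in PP replicates 1 to 3, against 1928, 1671 and 1726 counts in PA/OA replicates 1 to 3. Scaled, these were 413, 415 and 394 CPM in PP and 61.5, 55.6 and 61.7 CPM in PA/OA. The lowest PP library thus stood far above the highest PA/OA library. The log2 fold change of Limk1 was 2.77 ± 0.06 (SE), and 76 genes (0.484% of those tested) had a larger one. Limk2 (chromosome 11, 3344256 to 3409189) had 109, 106 and 112 CPM in PP and 69.2, 61.2 and 70.2 CPM in PA/OA, without overlap. It rose by 0.70 ± 0.06 on the log2 scale (adjusted p = 1.81e-09, edgeR), a smaller difference than that of Limk1. In bulk RNA, fewer cells with a transcript and less transcript per cell cannot be told apart.

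The share of the 2 genes within their family shifted. Per kb of annotated length, Limk1 made up 76.4%, 76.9% and 75.0% of LIM kinase reads in PP replicates 1 to 3, against 43.1%, 43.6% and 42.8% in PA/OA replicates 1 to 3. Limk1 was thus the more abundant LIM kinase mRNA in each PP library and the less abundant one in each PA/OA library. As Limk1 was picked for its large difference, this shift largely restates that choice and is a description only. Such a ratio is taken within a library and does not depend on a scaling factor shared by all genes of that library. Removal of a trend with abundance or gene length acts gene by gene and can change it.

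**Figure D1:**
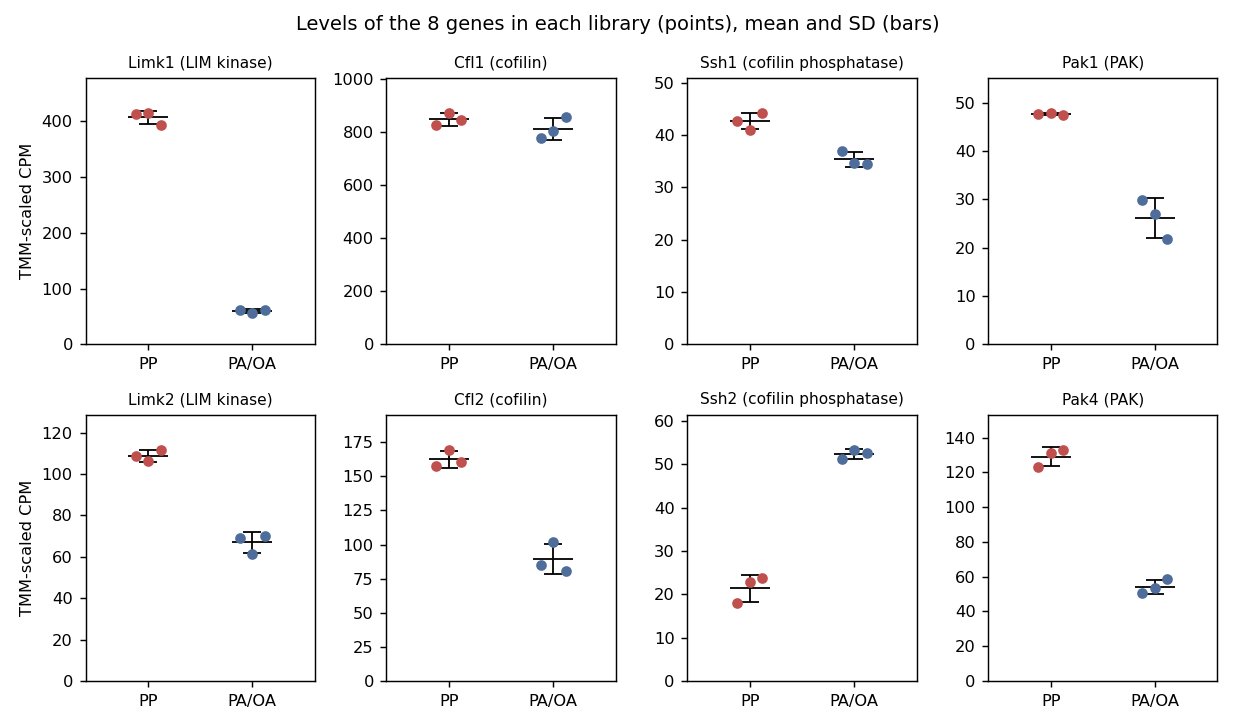
TMM-scaled CPM of each gene (vertical axes, from 0, a scale of its own for each gene) in the 3 PP and the 3 PA/OA libraries; points are libraries and bars the mean and SD. PP libraries lie above PA/OA libraries for Limk1, Limk2, Cfl2, Ssh1, Pak1 and Pak4, below them for Ssh2, and among them for Cfl1.

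Of the cofilin genes, the muscle form rose and the non-muscle form was not called. Cfl2 (chromosome 12, 54858809 to 54862877) had 158, 170 and 160 CPM in PP and 85.3, 102 and 80.8 CPM in PA/OA. All PP libraries lay above all PA/OA libraries, and Cfl2 rose by 0.86 ± 0.07 (log2, SE; adjusted p = 2.71e-10, edgeR). Cfl1 (chromosome 19, 5490455 to 5495201), the main cofilin of non-muscle cells, had 823, 870 and 844 CPM in PP and 775, 803 and 856 CPM in PA/OA. The groups overlapped, and the log2 difference was 0.06 ± 0.05 (edgeR, adjusted p = 0.311). Cfl1 was lower in PP with library size only (-0.38), with upper-quartile scaling (-0.18) and with the trend of fold change with abundance removed (-0.62), and higher with the trend with gene length removed (0.32), all past the test. The ratio of Cfl1 to Cfl2 per kb was 7.25, 7.12 and 7.31 in PP libraries, against 12.6, 10.96 and 14.7 in PA/OA libraries. The groups did not overlap in this ratio, which was 1.75-fold higher in PA/OA (exact two-sided permutation p = 0.1, the smallest that 3 against 3 allows, and 0.15 adjusted over 3 ratios). In annotation release GENCODE vM21, 16.5% of the exonic bases of Cfl1 also belong to Snx32 on the opposite strand, which had 2270 counts over the 6 libraries against 139194 for Cfl1. That release gives Cfl1 2844 exonic bases, against the 2354 bases of the deposited length used here per kb. The overlap in the annotation that was counted may therefore differ.

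The slingshot genes moved apart. Ssh2 (chromosome 11, 77216287 to 77460220) had 17.9, 22.8 and 23.7 CPM in PP, against 51.2, 53.4 and 52.7 CPM in PA/OA. No library of either group came near the other, and Ssh2 fell by 1.29 ± 0.09 (log2, SE; adjusted p = 3.26e-11, edgeR), the only fall among the members. Ssh1 (chromosome 5, 113937094 to 113993894) had 42.7, 41.0 and 44.2 CPM in PP and 37.0, 34.6 and 34.4 CPM in PA/OA. It rose by 0.27 ± 0.08 (adjusted p = 0.0027, edgeR), but was not called with library size only (-0.16), with upper-quartile scaling (0.03) or with the abundance trend removed (0.13). Per kb, Ssh1 stood at 4.98, 3.76 and 3.89 times Ssh2 in PP libraries, against 1.505, 1.35 and 1.36 times in PA/OA libraries. That ratio was 2.97-fold higher in PP and did not overlap (exact permutation p = 0.1, 0.15 adjusted). The third slingshot gene, Ssh3, rose by 0.31 ± 0.07 (adjusted p = 0.000316, edgeR), and was not called with library size only (-0.13), upper-quartile scaling (0.07) or the abundance trend removed (0.04). Pdxp, which codes for the cofilin phosphatase chronophin, held 10 counts over the 6 libraries and was not tested.

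Both PAK genes among the members rose, while other PAK genes (Pak2, Pak6) are given below. Pak4 (chromosome 7, 28558819 to 28598185) had 123, 131 and 133 CPM in PP, against 50.4, 53.7 and 58.5 CPM in PA/OA. It rose by 1.25 ± 0.07 (log2, SE; adjusted p = 1.34e-13, edgeR), the largest rise among the 7 members tested. Pak1 (chromosome 7, 97788541 to 97912381) had 47.7, 47.9 and 47.4 CPM in PP and 29.8, 26.9 and 21.8 CPM in PA/OA, and rose by 0.86 ± 0.09 (adjusted p = 2.93e-08, edgeR). The PP libraries were nearly level for Pak1, and its PA/OA libraries spread more. Per kb, Pak1 stood at 0.331 ± 0.015 of Pak4 in PP and 0.437 ± 0.099 in PA/OA (SD, n = 3 each), and these groups overlapped (exact permutation p = 0.2, also adjusted).

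**Figure D2:**
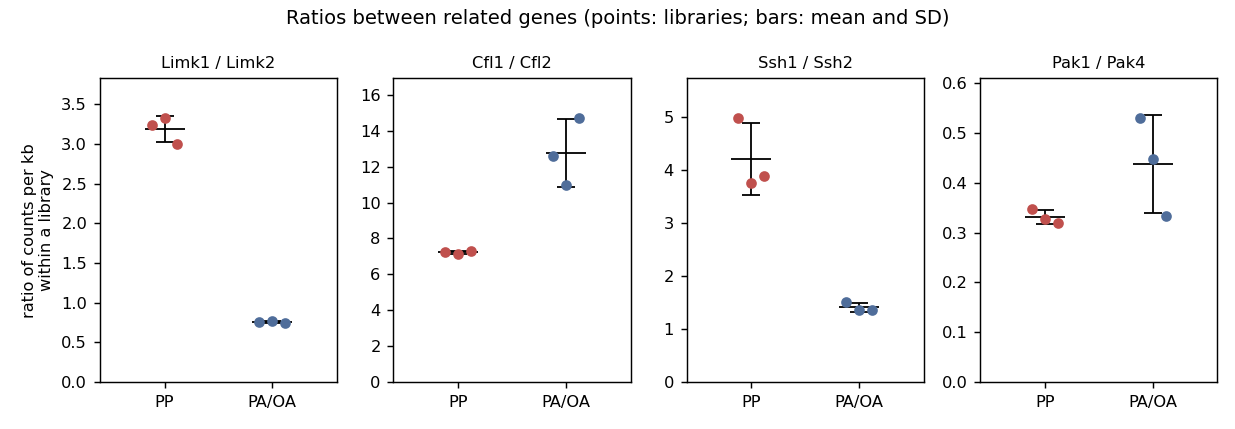
Ratio of counts per kb of annotated length between 2 related genes within each library (vertical axes, from 0), for PP and PA/OA; points are libraries and bars the mean and SD. Limk1/Limk2 and Ssh1/Ssh2 are higher in PP, Cfl1/Cfl2 is lower, and Pak1/Pak4 overlaps. Limk1 was picked for its large rise.

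Of the 7 members besides Limk1, 5 rose (Limk2, Cfl2, Ssh1, Pak1, Pak4), 1 fell (Ssh2) and 1 did not pass (Cfl1), beside 75.0% of all genes called. Groups did not overlap for 6 of the 7, beside 77.4% of all genes; PP lay above for 5 (36.1% of all genes) and below for 1 (41.4%). With so few genes, 6 of 7 lies near the background. The 7 had a median of 0.70 on the log2 scale, beside -0.09 for all genes tested. Fold changes rose with abundance over the whole table: the median was -1.38 in the least abundant quintile of genes and 0.46 in the most abundant one. By abundance 5 members lay in the top quintile, and Ssh1, Ssh2 and Pak1 in the next, whose median was 0.18. Scaling by library size alone moved the median over all genes by -0.435 relative to TMM, and then 4 members were higher (Limk2, Cfl2, Pak1, Pak4) and 2 lower (Ssh2, Cfl1). The same counts were found with the abundance trend removed and with upper-quartile scaling. Limk1, Limk2, Cfl2, Pak1 and Pak4 stayed above 0 and Ssh2 below 0 under each of the alternatives run.

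**Figure D3:**
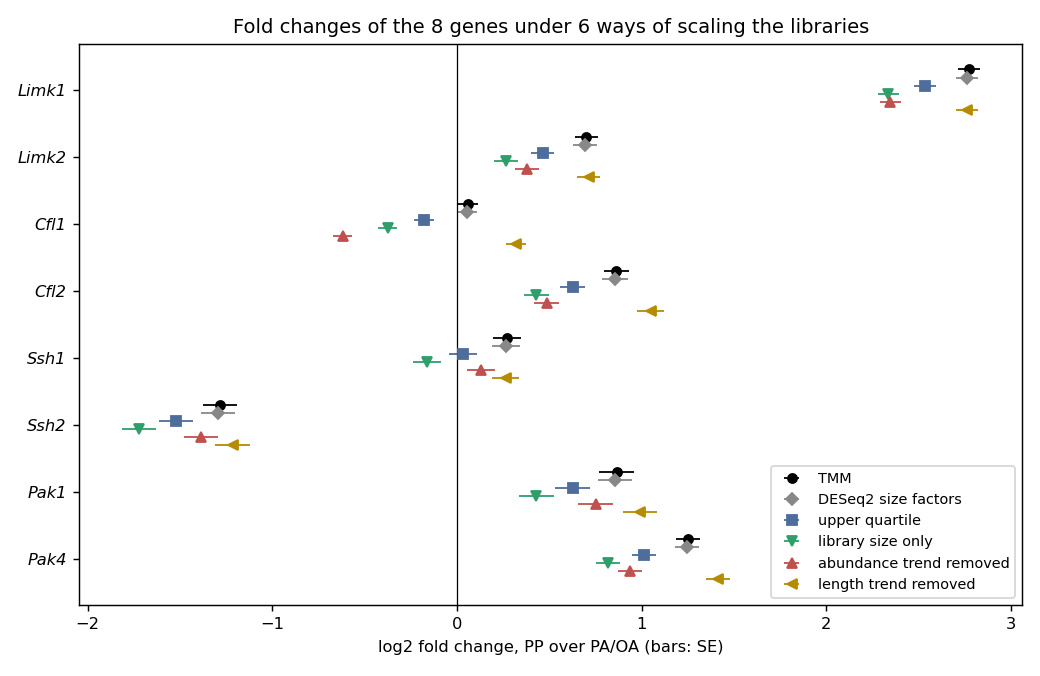
Log2 fold change of PP over PA/OA (horizontal axis) with its SE for each gene under 6 ways of scaling the libraries. Limk1 lies between 2.34 and 2.77 and Ssh2 between -1.72 and -1.22, while Cfl1 and Ssh1 cross 0.

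Between genes, levels were compared as CPM per kb of annotated length. Cfl1 was the most abundant member in both groups, at 359 ± 9.90 in PP and 345 ± 17.6 in PA/OA (SD, n = 3 each). In PP it was followed by Limk1 (56.9 ± 1.61), Cfl2 (49.7), Pak4 (36.5), Limk2 (17.8), Pak1 (12.1), Ssh1 (4.80) and Ssh2 (1.158), and no neighbours in this order overlapped. In PA/OA the order was Cfl2 (27.3), Pak4 (15.3), Limk2 (10.97), Limk1 (8.32 ± 0.478), Pak1 (6.63), Ssh1 (3.97) and Ssh2 (2.83), where no neighbours overlapped either. Limk1 thus ranked 2 of 8 in PP and 5 of 8 in PA/OA, a change that again largely restates the choice of Limk1 for its large difference. Over the 6 libraries, the genes whose centred log2 CPM was closest to that of Limk1 among 10308 protein-coding candidates were Dusp1 (root-mean-square difference 0.0645), Nyap1 (0.0767) and Lpin2 (0.0811). With only 2 groups, this search mostly finds genes with a like fold change. On the log2 scale theirs were 2.76, 2.75 and 2.87, beside 2.77 for Limk1. Shared regulation was not tested. Dusp1, which codes for a phosphatase of MAP kinases, had 268 ± 18.5 CPM in PP and 39.45 ± 2.52 CPM in PA/OA. Lpin2, a phosphatidate phosphatase gene, had 498 ± 2.91 CPM in PP and 67.9 ± 1.81 CPM in PA/OA.

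Other genes of actin turnover were taken from lists by role. Of 111 in the table, 98 were tested: 56 rose, 28 fell and 14 missed the threshold, beside 35.1% higher and 39.9% lower among all genes tested. Their median was 0.25 on the log2 scale beside -0.09 for all genes. Scaled by library size alone, 21 were called higher and 53 lower, beside 3235 and 8910 of all 15718 genes. Upper-quartile scaling gave 34 higher and 37 lower, beside 4241 and 7688 of all genes. Removal of the abundance trend gave 28 higher and 44 lower, beside 5609 and 5567 of all genes.

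Of 19 tested genes of small GTPases and their regulators, 9 rose and 9 fell, beside 35.1% higher and 39.9% lower of all genes, the background for each list here. Rhoc and Rhob moved in opposite directions. Rhoc had 145 ± 7.10 CPM in PP and 63.5 ± 3.01 CPM in PA/OA (SD, n = 3 each), a rise of 1.19 ± 0.06 (log2, SE; adjusted p = 1.03e-13, edgeR). Rhob had 29.7 ± 4.23 CPM in PP and 67.9 ± 5.88 CPM in PA/OA, a fall of similar size (-1.20 ± 0.09; adjusted p = 9.03e-11, edgeR). Rhoa rose by 0.52, and was not called with library size only (0.08) or the abundance trend removed (0.02). Rnd3, which codes for an atypical small GTPase, fell by 0.28, although its groups overlapped. That call was lost without PP replicate 1 (-0.23), PP replicate 2 (-0.16) or PA/OA replicate 2 (-0.23), and with the length trend removed (-0.18). Git2, an adaptor gene that acts with the PIX exchange factors of PAK, rose by 1.04. Of the kinase genes of the same step, 10 were tested, of which 5 rose and 2 fell, with 75.0% of all genes called. The falls were those of Pak6, with 0.330 ± 0.0376 CPM in PP and 5.85 ± 0.368 CPM in PA/OA, and Tesk1, another cofilin kinase gene, with 2.49 ± 0.426 CPM in PP and 6.30 ± 0.825 CPM in PA/OA. Tesk2 stood at -0.08 on the log2 scale (edgeR, adjusted p = 0.781), and its exons overlap those of 2 genes with more counts. Cdc42bpg, which codes for an MRCK kinase, rose by 0.41, and Pak2 by 0.29. Neither of these was called higher with library size only (-0.02 for Cdc42bpg, -0.14 for Pak2, which was then called lower) or with upper-quartile scaling (0.17 for Cdc42bpg, 0.06 for Pak2), and Pak2 stood at -0.09 with the abundance trend removed.

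Of 12 tested genes of phosphatases and 14-3-3 proteins, which bind phosphorylated cofilin and slingshot, 8 rose and 1 fell, beside 35.1% higher and 39.9% lower of all genes. Ppp2ca rose by 0.67 and Ywhae by 0.57 (-0.05 with the abundance trend removed), while Ywhaz fell by 0.30. Ywhah rose by 0.54, and was not called with library size only (0.10) or the abundance trend removed (0.09). Of 17 tested genes of filament disassembly and monomer recycling, 9 rose and 6 fell, again with 75.0% of all genes called. Dstn, which codes for destrin, the third member of the cofilin family, had 547 ± 14.3 CPM in PP and 273 ± 20.2 CPM in PA/OA, a rise of 1.00 ± 0.06 (adjusted p = 7.17e-13, edgeR). Tmsb10, which codes for a monomer-binding thymosin, rose by 1.32 and Coro1b, a coronin gene, by 1.05. Of 19 tested genes of myosin, formins and membrane linkers, 13 rose and 3 fell, beside 35.1% higher and 39.9% lower of all genes. Diaph1, the formin gene below RhoA, had 225 ± 1.88 CPM in PP and 78.3 ± 1.52 CPM in PA/OA, and Ezr, the gene of the membrane linker ezrin, rose by 0.73 (not called with the abundance trend removed, 0.08). The falls were Mylk, the myosin light chain kinase gene (-1.44), Myh10 (-1.65) and Daam1 (-0.42). Of 21 tested genes of actins, the transcription factor SRF and its targets, 12 rose and 7 fell, beside the same shares of all genes. The 2 cytoplasmic actin genes moved in opposite directions. Actg1 had 1545 ± 73.6 CPM in PP and 661 ± 6.95 CPM in PA/OA (1.23 ± 0.05; adjusted p = 4.96e-15, edgeR), and Actb had 902 ± 11.2 CPM in PP and 1643 ± 75.9 CPM in PA/OA (-0.86 ± 0.05; adjusted p = 1.57e-12, edgeR). Both kept their direction under each of the alternatives run. Actn4, an actinin gene, rose by 1.01.

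**Figure D4:**
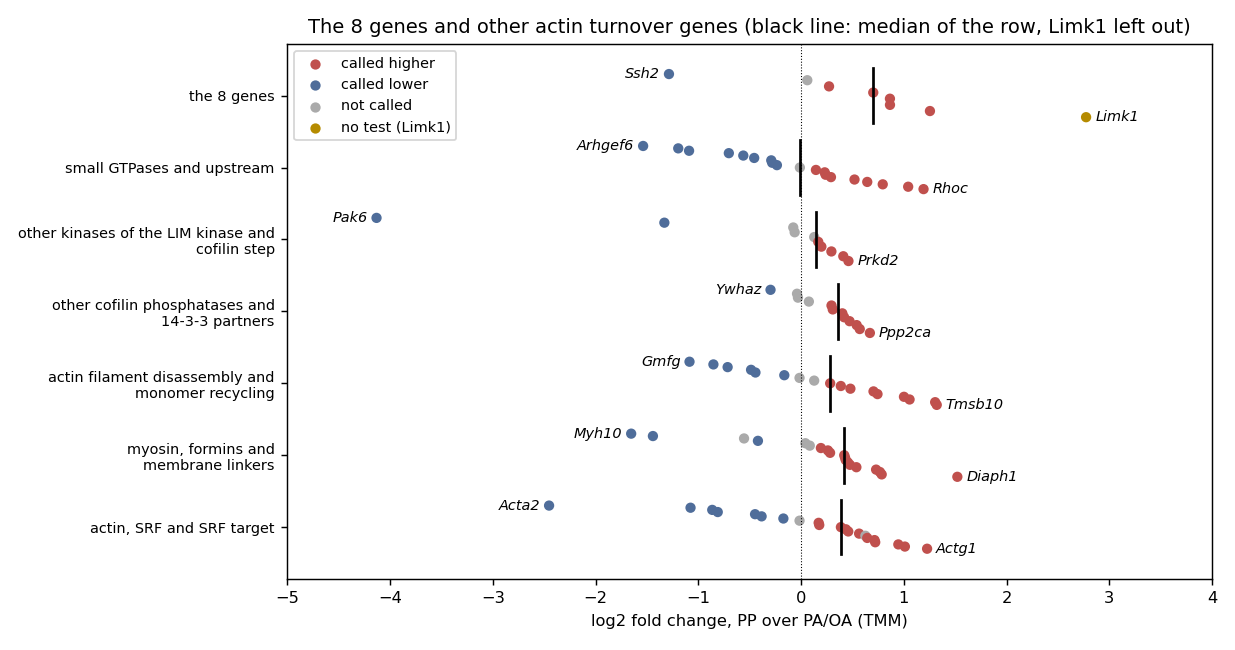
Log2 fold change of PP over PA/OA with TMM scaling (horizontal axis) for the 8 genes and for 98 tested genes of 6 lists (rows); each point is a gene, coloured by its call, and black lines are medians, without Limk1. Every list has points on both sides of 0, and no listed gene lies to the right of Limk1, which was picked for its large rise.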

How the data were processed

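The authors deposited whole-number counts per gene for 6 libraries, made with featureCounts on build mm10 per the submitters' processing notes; those notes also list DESeq2 1.16.1. The sources used here name no aligner, annotation release or use of strand. Gene lengths for levels per kb are those in the same table. Groups came from the treatment labels. The members, gene lists and tests were chosen with earlier results of these data known; 2 further members are not reported here, and counts over the members leave them out. The analysis of counts used edgeR 4.0.16 in R 4.3.3: filterByExpr, TMM, and the two-sided quasi-likelihood F-test with Benjamini-Hochberg adjustment over all 15718 genes tested, threshold 0.05. Log2 fold changes are PP minus PA/OA, with the SE from the F statistic. The code was tested on simulated data. Genes named were the members, 3 of each list with the smallest p, 12 chosen for function, members against a list's majority where 5 or fewer, and the 3 genes closest to Limk1. Paralog ratios were compared by exact permutation. Within each group no library repeated another, since pairs gave a mean chi-square of 3.16 to 5.05 over genes, computed on halved counts. Pairs across the groups were not compared in this way. Even numbers made up 57.1% to 61.5% of low counts, from 1 to 20, so mates of a pair may have been counted separately. Exonic overlaps were read from GENCODE vM21 (GRCm38), which holds 54495 of the table's 54532 gene IDs, 53585 with the same start and end. Alternatives used DESeq2 1.42.0 and limma 3.58.1, other scalings and filters, halved counts, protein-coding genes only, lowess trends (span 0.4) removed, a replicate block, and each library left out.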

Additional observations from a re-analysis of the deposited data

How the results depend on the processing

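Members other than Limk1 counted 5 higher and 1 lower. The number lower was 2 with library size only, 2 with upper-quartile scaling and 2 with the trend with abundance removed; without any 1 library the counts were 5 higher and 1 lower. Other actin turnover genes counted 56 higher and 28 lower: the number higher was 21 with library size only, 34 with upper-quartile scaling and 28 with the abundance trend removed, and the number lower 53 with library size only and 44 with the abundance trend removed. Leaving out 1 library gave 53 to 58 higher and 25 to 28 lower. Of all genes, 5510 were higher, and 3235 with library size only. Scaling shifted the median of all genes by -0.435 with library size only and by -0.238 with upper-quartile scaling, and removing a trend shifted it by 0.154 (abundance) or 0.151 (gene length).

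On the log2 scale, Limk1 stood at 2.34 with library size only, 2.54 with upper-quartile scaling, 2.35 with the abundance trend removed, and 2.73 to 2.82 without 1 library. With library size only, values below 0 were found for Cfl1 (-0.38) and Ssh1 (-0.16), and among other genes for Cdc42bpg (-0.0247), Pak2 (-0.14) and Ssh3 (-0.13), and Rhoa and Ywhah were not called. With upper-quartile scaling this held for Cfl1 (-0.18), and Ssh1 (0.0338), Cdc42bpg (0.17), Pak2 (0.0569) and Ssh3 (0.0699) were not called. With the abundance trend removed it held for Cfl1 (-0.62), Pak2 (-0.0926) and Ywhae (-0.0508), and Ssh1 (0.13), Ssh3, Rhoa, Ywhah and Ezr were not called. With the length trend removed, Cfl1 (0.32) passed and Rnd3 (-0.18) did not. The cause of these changes was not tested, beyond the shift of all genes. The replicate number as a block, with Limk1 at 2.77 and Ssh2 at -1.30, changed no call of a member. The counts were then 5 higher and 1 lower. Deviations of same-numbered libraries correlated between -0.0113 and 0.00373, and those of differently numbered ones between -0.0185 and 0.0158. With so few libraries, these values cannot show whether the libraries were prepared in pairs. The paralog ratios kept their direction without any 1 library, with raw counts and with differences of same-numbered libraries, where 3 pairs allow no exact p under 0.25. Depth did not limit the members, the lowest count among them being 425 (Ssh2, PP replicate 1).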
